A study of Ovis aries with 8 samples.

Results

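The genes described here bear on arrest of the cell cycle. They are the cyclin-dependent kinase inhibitors CDKN1A, CDKN1B, CDKN1C, CDKN2A and CDKN2B, and the stress and p53 response genes MDM2, CCNG1, CCNG2 and GADD45A. They were listed by name, and every listed gene with a row of its own in the deposited table was used. Of the 9 listed genes 7 had a row, out of 14577 genes in all, and CDKN1C and CDKN2A were not analysed here. RNA came from cultures labelled as pulmonary artery endothelial cells (the inner lining of the vessels that feed the lungs) and taken from sheep fetuses (Ovis aries) close to term. There were 4 cultures from fetuses of an intrauterine growth restriction (IUGR) model, labelled hyperthermic, and 4 control cultures, labelled normothermic, each measured on 1 array. The medium was DMEM with 10% serum throughout. IUGR cultures were at passage 3 or 4 and control cultures at passage 5 or 6. Growth restriction, the hyperthermic label and passage therefore cannot be told apart.

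Progress from the first growth phase of the cell cycle into DNA synthesis is driven by cyclins bound to cyclin-dependent kinases (CDKs). The CIP/KIP inhibitors (CDKN1A, CDKN1B and CDKN1C) bind many cyclin and CDK complexes, while the INK4 inhibitors (CDKN2A, CDKN2B, CDKN2C and CDKN2D) bind the kinases CDK4 and CDK6. The transcription factor p53 switches on CDKN1A, CCNG1, GADD45A and its own inhibitor MDM2 after DNA damage and other stress. In vessels the CDK inhibitors are known for holding endothelial cells quiescent, and in culture for stopping cells as they age. These roles come mainly from work in human and mouse cells.

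Values are log2 intensities, and means are given ± SD of 4 arrays. Differences are IUGR minus control, with a standard error (SE) and a 95% interval from limma, and adjusted p-values cover all 14577 genes with a threshold of 0.05. Each culture has an animal identifier of its own in its title. The table holds no detection calls, so the 95th percentile of olfactory receptor genes, 3.44, served as a background level. Median intensity per array ran between 37.7 and 41.1, so the arrays had nearly the same overall brightness.

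The cell content of the cultures differed between arrays. The mean of 12 endothelial markers was 6.74, 3.87, 7.93 and 3.69 in IUGR replicates 1 to 4, and 8.69, 9.09, 8.89 and 7.86 in control replicates 1 to 4. In IUGR replicates 2 and 4 the defining endothelial genes PECAM1 (3.31 and 3.63) and CDH5 (2.85 and 3.49) lay around the background level, which goes against the endothelial label of these cultures, and 5 of the 12 markers lay at or below it on each. The mean of 10 fibroblast markers was 9.06 to 10.15 in IUGR cultures, and 8.79 in control replicate 4 but 4.75 to 5.51 in control replicates 1 to 3. The mean of 9 mesothelial and epithelial markers reached 7.64 in IUGR replicate 2 and 8.70 in IUGR replicate 4, while no other array exceeded 4.16. In such bulk samples, fewer cells of a type and less RNA per cell cannot be told apart.

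No arrest gene passed the limma test over all genes. Of the 7 measured, 0 had an adjusted p under 0.05, where 0.0686% of all genes did (0.0412% higher and 0.0274% lower in IUGR). At an unadjusted p under 0.05 there were 2, CCNG1 with higher values in IUGR and CDKN1B with lower ones, where 15.9% of all genes reached that level in either direction. The groups did not overlap for 1 of the 7, CCNG1, against 8.65% of all genes (4.53% with IUGR above control and 4.12% with IUGR below it). The median difference over the 7 genes was -0.18, against 0.00 over all genes.

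**Figure D1:**
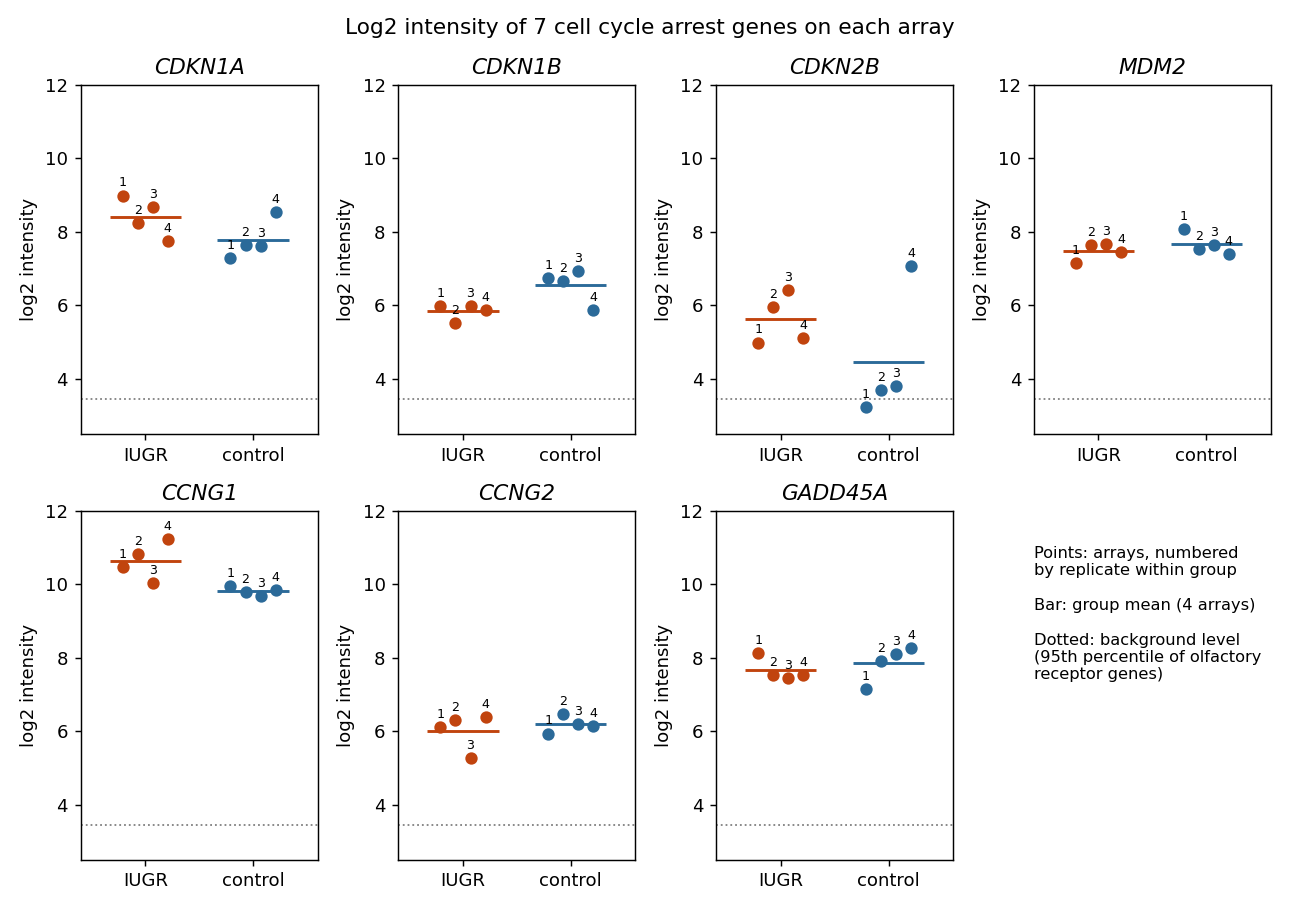
Log2 intensity of the 7 measured arrest genes on each of the 8 arrays, with IUGR at the left and control at the right of each panel. Points are arrays numbered by replicate, bars are means of 4 arrays, and the dotted line is the background level of 3.44. The IUGR values of CCNG1, 10.03 to 11.24, lie above all control values, while control replicate 4 stands with the IUGR arrays for CDKN1A, CDKN1B and CDKN2B.

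CDKN1A encodes p21, the CIP/KIP inhibitor through which p53 halts the cycle. It measured 8.99, 8.23, 8.68 and 7.76 in IUGR cultures, and 7.28, 7.63, 7.62 and 8.53 in control cultures. Every IUGR value lay above control replicates 1 to 3, and control replicate 4 lay above IUGR replicates 2 and 4, so the groups overlapped. The means were 8.42 ± 0.54 in IUGR and 7.77 ± 0.53 in control (n = 4 each). The difference of 0.65 ± 0.35 (SE), 1.57-fold on the linear scale, had an interval of -0.19 to 1.49 and a limma adjusted p of 0.428. An exact two-sided permutation test gave p = 0.143 (n = 4 each), where the smallest value the design allows is 0.0286. The smooth muscle marker level, a mean over 8 genes, was highest in IUGR replicate 1 (8.47) and control replicate 4 (8.74), the arrays with the highest CDKN1A of their groups. The part of these other cells in the CDKN1A values was not tested. Without control replicate 4 the difference was 0.90 (limma adjusted p = 0.203). It was 1.07 without IUGR replicates 2 and 4 (limma adjusted p = 0.373) and 1.32 without all of these arrays (limma adjusted p = 0.0618).

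CDKN1B encodes p27, the CIP/KIP inhibitor that restrains cyclin E with CDK2 in resting cells. It measured 5.99, 5.52, 5.98 and 5.88 in IUGR cultures, and 6.74, 6.66, 6.94 and 5.87 in control cultures. The IUGR values lay close together below control replicates 1 to 3, and only control replicate 4 fell among them. The means were 5.84 ± 0.22 in IUGR and 6.55 ± 0.47 in control (n = 4 each). The difference was -0.71 ± 0.25 (SE), which is 0.612-fold, with an interval of -1.29 to -0.13. The limma adjusted p was 0.237 and the exact two-sided permutation p was 0.114 (n = 4 each). Without control replicate 4 the difference was -0.94 and passed, at a limma adjusted p of 0.0374. The adjusted p ranged between 0.0374 and 0.883 over 22 alternative settings, with the highest and a difference of -0.35 when the endothelial marker level was a covariate.

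CDKN2B encodes p15, an INK4 inhibitor known as a target of TGF-beta signalling. It measured 4.99, 5.95, 6.41 and 5.12 in IUGR cultures, and 3.23, 3.71, 3.80 and 7.07 in control cultures. The highest and the lowest value of all 8 arrays both came from control cultures. Control replicate 1 lay below the background level of 3.44 and control replicates 2 and 3 just above it, while control replicate 4 was above every IUGR array. The means were 5.62 ± 0.68 in IUGR and 4.45 ± 1.76 in control (n = 4 each). The difference was 1.17 ± 0.88 (SE), with an interval of -0.92 to 3.25 and a limma adjusted p of 0.574, and the exact permutation p was 0.229 (n = 4 each). Without control replicate 4 it was 2.04, with a limma adjusted p of 0.0642, and without control replicate 1 it was 0.76. The 3 remaining controls lie at or near background, which limits how well the size of that difference is known.

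The other INK4 genes with a row went in different directions. CDKN2C, encoding p18, measured 5.93, 5.93, 7.17 and 6.17 in IUGR cultures, and 8.01, 7.42, 7.75 and 5.95 in control cultures. As for CDKN1B, control replicate 4 was the only control among the IUGR values, and the difference was -0.98 ± 0.51 (SE, limma adjusted p = 0.408). CDKN2D, encoding p19, averaged 4.26 ± 0.20 in IUGR and 4.08 ± 0.39 in control (n = 4 each), a difference of 0.17 ± 0.21 (SE, limma adjusted p = 0.747). Among the 5 measured inhibitors of the family, 3 had higher and 2 lower group means in IUGR, and 0 passed.

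MDM2 encodes the ubiquitin ligase that marks p53 for destruction. It measured 7.14, 7.63, 7.68 and 7.46 in IUGR cultures, and 8.08, 7.54, 7.65 and 7.41 in control cultures. The highest value was in control replicate 1, the lowest in IUGR replicate 1, and the other 6 arrays of both groups were mixed. The means were 7.48 ± 0.24 in IUGR and 7.67 ± 0.29 in control (n = 4 each). The difference was -0.19 ± 0.18 (SE) with a limma adjusted p of 0.667, and its interval of -0.62 to 0.24 leaves room for between 0.650-fold and 1.18-fold. MDM2 had the smallest spread of the 7 genes, with an SD of 0.27 over the 8 arrays, and 24.2% of the genes with a mean above the median gene varied less. The difference was -0.057 without control replicate 1, -0.081 without IUGR replicate 1 and -0.62 ± 0.57 (SE) with passage as a covariate.

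CCNG1 encodes cyclin G1, an atypical cyclin that p53 induces and that acts on MDM2 with the phosphatase PP2A. It measured 10.46, 10.83, 10.03 and 11.24 in IUGR cultures, and 9.94, 9.80, 9.69 and 9.85 in control cultures. All IUGR arrays lay above all control arrays, the nearest pair being IUGR replicate 3 and control replicate 1. The means were 10.64 ± 0.51 in IUGR and 9.82 ± 0.10 in control (n = 4 each). The difference was 0.82 ± 0.25 (SE), which is 1.77-fold, with an interval of 0.24 to 1.41. It did not pass over all genes (limma adjusted p = 0.191), and the exact two-sided permutation p of 0.0286 (n = 4 each) is the smallest the design allows. CCNG1 was highest in IUGR replicate 4, then in IUGR replicate 2, where endothelial markers were lowest and mesothelial and epithelial markers highest. Without these arrays the difference was 0.43, and with the endothelial level as a covariate it was 0.14 (limma adjusted p = 0.367 and 0.907).

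CCNG2 encodes cyclin G2, which FOXO transcription factors induce in resting cells. It measured 6.11, 6.29, 5.26 and 6.38 in IUGR cultures, and 5.93, 6.46, 6.20 and 6.15 in control cultures. The groups overlapped fully except for IUGR replicate 3, the lowest array. The difference was -0.18 ± 0.26 (SE), with an interval of -0.80 to 0.44 and a limma adjusted p of 0.808. Without IUGR replicate 3 it was 0.07, so its sign rested on that array.

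GADD45A encodes a stress protein that binds p21 and the replication clamp PCNA and activates the kinase MAP3K4. It measured 8.13, 7.52, 7.44 and 7.54 in IUGR cultures, and 7.14, 7.92, 8.09 and 8.27 in control cultures. Control replicate 1 was the lowest of the 8 arrays, and the other 3 controls and IUGR replicate 1 were the 4 highest. The difference was -0.20 ± 0.28 (SE), with an interval of -0.86 to 0.46 and a limma adjusted p of 0.796. Leaving out control replicate 1 gave -0.44 (limma adjusted p = 0.427), while leaving out control replicate 4 gave -0.057 and control replicate 3 gave -0.12 (limma adjusted p = 0.970 and 0.933).

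**Figure D2:**
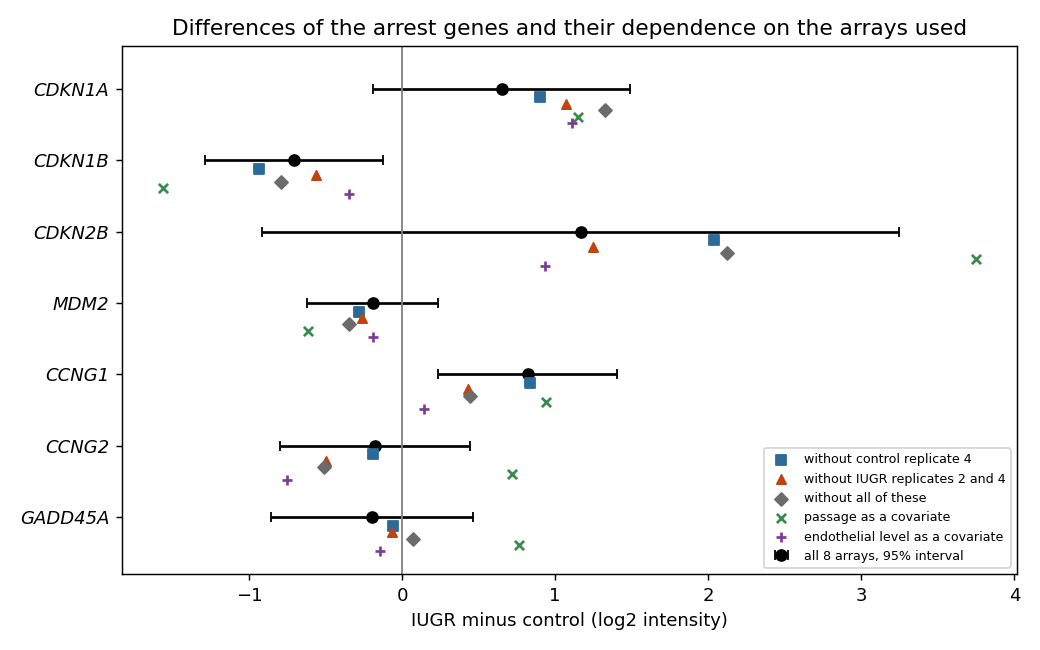
Difference between IUGR and control in log2 intensity for the 7 arrest genes, with the 95% interval over all 8 arrays in black and 5 of the 22 other settings as coloured symbols below it. The intervals of CCNG1 (0.24 to 1.41) and CDKN1B (-1.29 to -0.13) lie on one side of 0, and the 5 symbols for CDKN2B run between 0.93 and 3.75, while over all its settings the low end was 0.43.

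Differences of the p53 targets lay on both sides of 0. Of 32 listed targets 26 were measured, CDKN1A, MDM2, CCNG1 and GADD45A among them, and 0 passed over all genes. Group means were higher in IUGR for 14 and lower for 12, with a median difference of 0.04, against 0.00 over all genes. At an unadjusted limma p under 0.05 there were 1 higher and 2 lower, where 8.20% and 7.68% of all genes were. The 3 are CCNG1, PMAIP1 and AEN. Both lower ones encode proteins of cell death. PMAIP1, the NOXA protein that blocks a survival factor of the BCL2 family, measured 4.91, 5.10, 4.99 and 5.15 in IUGR cultures, and 6.43, 7.05, 5.87 and 6.39 in control cultures. The IUGR values spanned a narrow range below every control. The difference was -1.39 ± 0.23 (SE), which is 0.380-fold, with a limma adjusted p of 0.0950. It passed when only genes above the median gene were tested (limma adjusted p = 0.0492), where 52 of 7288 genes passed. Over the alternatives the PMAIP1 adjusted p ran up to 0.669. AEN, a nuclease active in cell death, averaged 5.75 ± 0.12 in IUGR and 6.06 ± 0.12 in control (n = 4 each), a difference of -0.31 ± 0.09 (SE, limma adjusted p = 0.185). BAX, a pore-forming death protein, also did not overlap between the groups, at 6.74 to 6.94 in IUGR and 6.99 to 7.38 in control, with a difference of -0.23 ± 0.11 (SE, limma adjusted p = 0.363). Of the 26 targets, 3 had IUGR below control without overlap and 1 had IUGR above it, where 4.12% and 4.53% of all genes did. SESN2, a stress-induced brake on mTOR signalling, averaged 6.76 ± 0.85 in IUGR and 5.76 ± 0.52 in control (n = 4 each), a difference of 1.01 ± 0.47 (SE, limma adjusted p = 0.355). Without control replicate 4 the counts at an unadjusted p under 0.05 were 3 higher and 2 lower, without IUGR replicates 2 and 4 they were again 3 and 2, and without all of these arrays 2 and 2. Over all 14577 genes the counts were 1307 and 1372, 1025 and 778, and 1496 and 1283 in these settings.

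In a list of 17 genes of the network that controls p53, of which 16 were measured, 0 passed, 6 had higher and 10 lower group means, and the median difference was -0.18. At an unadjusted limma p under 0.05 there were 2 higher and 2 lower, where 8.20% and 7.68% of all genes were. The higher ones were ATM, the kinase that reports DNA breaks, with a difference of 0.66 ± 0.24 (SE), and TP53BP1, which gathers at those breaks, with 0.53 ± 0.17 (SE). Their limma adjusted p-values were 0.255 and 0.216. Among the lower ones was RPL11, a ribosomal protein that restrains MDM2, with -0.25 ± 0.10 (SE, limma adjusted p = 0.294). Without control replicate 4 and IUGR replicates 2 and 4, 7 members were lower and 0 higher at that level, while without control replicate 4 alone 1 was lower and 1 higher. The median difference was -0.43 without all of these arrays and -0.31 without control replicate 4 alone.

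**Figure D3:**
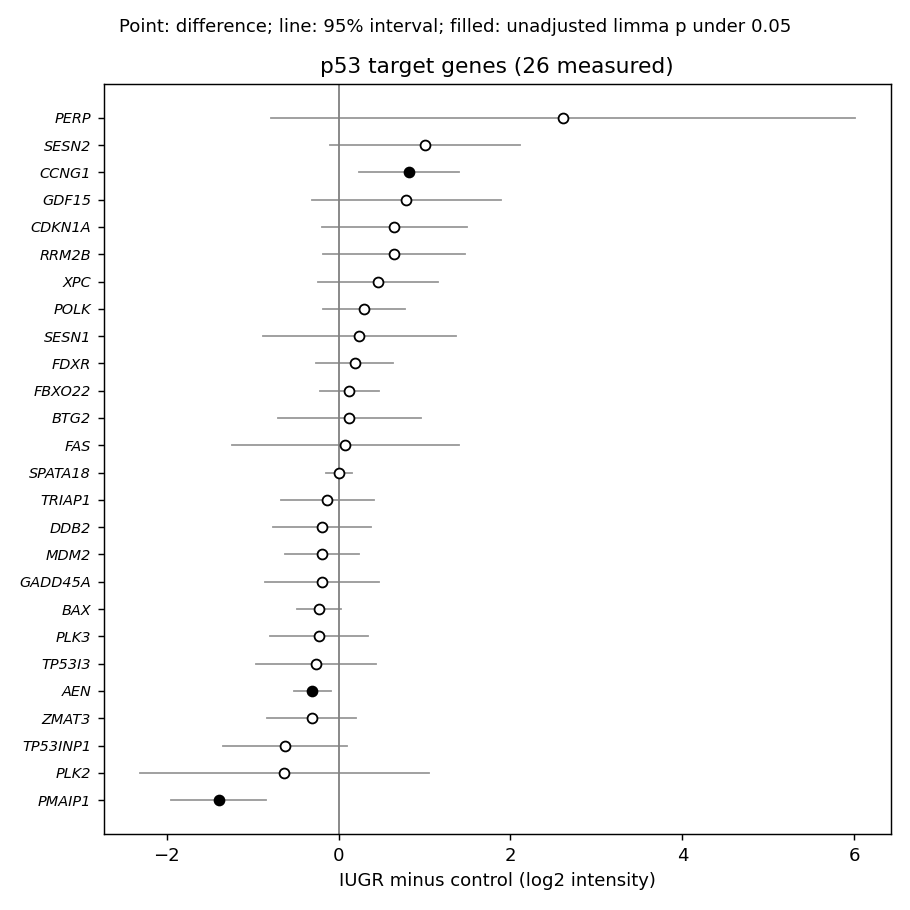
Differences between IUGR and control in log2 intensity for the 26 measured p53 targets. Points are differences, lines are 95% intervals, and filled points have an unadjusted limma p under 0.05. Targets lie on both sides of 0 around a median of 0.04, with PMAIP1 lowest at -1.39.

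Genes that act directly on the inhibitors were described next. The p27 protein is tagged for destruction by the SKP2 ubiquitin ligase. SKP2 measured 8.29, 7.80, 9.86 and 8.95 in IUGR cultures, and 10.64, 10.88, 10.20 and 10.00 in control cultures. All IUGR values lay below the controls, so SKP2 and CDKN1B transcripts both had lower means in IUGR. The SKP2 difference was -1.70 ± 0.45 (SE, limma adjusted p = 0.162). It was the 1 of 5 measured ligase genes at an unadjusted limma p under 0.05 and the 1 without overlap. Of all genes 7.68% were lower at that level, and 4.12% had IUGR below control without overlap. With the endothelial level as a covariate, or without control replicate 4 and IUGR replicates 2 and 4, 0 of the 5 were at that level. With passage as a covariate 2 were lower, where 665 of all 14577 genes were. The partners CKS1B and RBX1 and the separate ligase gene RNF123 differed by -0.31, -0.21 and 0.11 (limma adjusted p = 0.605, 0.631 and 0.870). SKP1, a core subunit that every cell uses, lay at the floor of 2.56 on all arrays, so its row gives no level.

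The INK4 locus of CDKN2A and CDKN2B is held silent by polycomb proteins and switched by other factors. Of 11 measured regulators 0 passed, and 3 were lower and 0 higher at an unadjusted limma p under 0.05, where 7.68% and 8.20% of all genes were. With passage or the endothelial level as a covariate, or without IUGR replicates 2 and 4, 0 were lower and 0 higher at that level. CBX7, a polycomb reader protein, averaged 5.28 ± 0.11 in IUGR and 5.97 ± 0.38 in control (n = 4 each) without overlap, a difference of -0.69 ± 0.19 (SE, limma adjusted p = 0.163). Without control replicate 4 the CBX7 difference was -0.85 and passed (limma adjusted p = 0.0401), where 369 of all 14577 genes passed. Over the alternatives the CBX7 adjusted p ran up to 0.795. ETS1 and ETS2, transcription factors that can activate the locus, differed by -1.54 ± 0.56 (SE) and -1.75 ± 0.69 (SE), with limma adjusted p-values of 0.255 and 0.294 and overlapping groups. CBX8 did not overlap either, at 3.86 to 3.95 in IUGR and 4.00 to 4.72 in control (limma adjusted p = 0.456). The nearest pair was 3.95 in IUGR replicate 3 and 4.00 in control replicate 1, both not far above background. The CBX8 difference was -0.29 over all arrays and -0.12 without control replicate 4. Of the 11 regulators 2 had IUGR below control without overlap, where 4.12% of all genes did.

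In the lists of GADD45 partners and of FOXO targets, 1 of 6 and 2 of 12 measured genes had IUGR above control without overlap. Of all genes 4.53% did. Of the 6 GADD45 genes 0 passed, and 1, MAP3K4, was at an unadjusted limma p under 0.05, where 15.9% of all genes were. MAP3K4, the stress kinase that GADD45 proteins switch on, measured 6.81, 7.10, 6.32 and 6.60 in IUGR cultures, and 5.99, 5.69, 6.13 and 5.92 in control cultures. All IUGR values were above the controls, and the difference was 0.77 ± 0.18 (SE, limma adjusted p = 0.129). MAPK14, the p38 kinase downstream of it, differed by 0.33 ± 0.15 (SE, limma adjusted p = 0.356), and the relatives GADD45G and GADD45B by 0.57 and 0.47 (limma adjusted p = 0.497 and 0.583). In the FOXO target list 0 of 12 measured genes passed, with 2 higher and 2 lower at an unadjusted p under 0.05, where 8.20% and 7.68% of all genes were. BCL6, a transcriptional repressor, averaged 8.00 ± 0.88 in IUGR and 5.22 ± 0.79 in control (n = 4 each), a difference of 2.78 ± 0.55 (SE, limma adjusted p = 0.106). It passed without control replicate 4, at 3.13 (limma adjusted p = 0.0438), where 369 of all 14577 genes passed. The BCL6 difference was 1.67 with the endothelial level and 6.07 with passage as a covariate (limma adjusted p = 0.653 and 0.514). INSR, the insulin receptor, differed by 1.07 ± 0.26 (SE, limma adjusted p = 0.136), and BCL2L11, a death protein, by -0.92 ± 0.45 (SE, limma adjusted p = 0.380). The groups were apart for BCL6 and INSR, as they were with IUGR above control for 4.53% of all genes. RBL2, a relative of the retinoblastoma protein, differed by -0.40 ± 0.17 (SE, limma adjusted p = 0.310).

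The machinery that the inhibitors restrain showed overlapping groups throughout. None of 5 measured cyclins and CDKs of the first growth phase was at an unadjusted limma p under 0.05, where 15.9% of all genes were. CDK2, the kinase held by p21 and p27, averaged 6.59 ± 0.68 in IUGR and 7.29 ± 0.78 in control, and CDK4, the kinase held by INK4 proteins, averaged 9.28 ± 0.13 in IUGR and 9.34 ± 0.19 in control (n = 4 each). The 2 differed by -0.69 ± 0.48 (SE) and -0.06 ± 0.11 (SE). CCNE1 and CCNE2, the cyclin E genes, differed by 0.28 and -0.40 (limma adjusted p = 0.791 and 0.839). Among 10 measured RB and E2F genes, 1 was at an unadjusted limma p under 0.05, RBL2, against the same 15.9% of all genes. E2F6, E2F3 and RBL1 differed by -0.29, 0.38 and -0.54.

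Of 22 proliferation genes, all measured, 18 had lower and 4 higher group means in IUGR, with a median difference of -0.33, and 0 passed over all genes. That median was -0.60 without control replicate 4, -0.91 without that array and IUGR replicates 2 and 4, and -1.81 with passage as a covariate. Passage did not overlap between the groups, so the last value is poorly determined. Only 1 of the 22, BIRC5 (survivin), was at an unadjusted limma p under 0.05, where 15.9% of all genes were. BIRC5 was higher in IUGR (0.93 ± 0.36 SE, limma adjusted p = 0.284). Without control replicate 4, without IUGR replicates 2 and 4, or with passage or endothelial level as a covariate, 0 of the 22 were at that level. PCNA, MCM6 and MCM3, genes of DNA replication, differed by -0.75, -0.57 and -0.56, each with an SE over 0.5. The mean level of the 22 genes was 5.93, 7.27, 7.87 and 7.49 in IUGR replicates 1 to 4, and 8.45, 7.24, 7.52 and 6.25 in control replicates 1 to 4. It varied within each group by more than the means of the groups, 7.14 in IUGR and 7.36 in control, were apart.

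Across the 8 arrays MDM2 and GADD45A followed the proliferation level in opposite directions. MDM2 was highest in control replicate 1, where that level was highest, and lowest in IUGR replicate 1, where it was lowest (Pearson r = 0.91, Spearman rho = 0.93). GADD45A ran the other way (r = -0.83, rho = -0.81). Without the 2 arrays farthest from the median proliferation level, IUGR replicate 1 and control replicate 4, r was 0.88 for MDM2 and -0.71 for GADD45A. Control replicate 1, with the highest MDM2 and the lowest GADD45A, stayed in, so these values still depend on it. The points share arrays, groups and passage, so these are descriptions of 8 cultures. CDKN1B ran against the fibroblast marker level (r = -0.95, rho = -0.71), with control replicates 1 to 3 at one end and the 5 other arrays at the other end. Without the 2 farthest arrays, control replicates 2 and 3, r was -0.92. That value rests on control replicate 1 alone against the 5 other arrays, so it says little about how firm the relation is. CDKN1A and CDKN2B had r = 0.75 and rho = 0.71 with each other, and CDKN1B and CDKN2B had r = -0.83 and rho = -0.81. Without the 2 arrays farthest from the median of CDKN2B, r was 0.65 and -0.85 for these pairs. CDKN1A and CDKN1B had r = -0.67 and rho = -0.57.

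**Figure D4:**
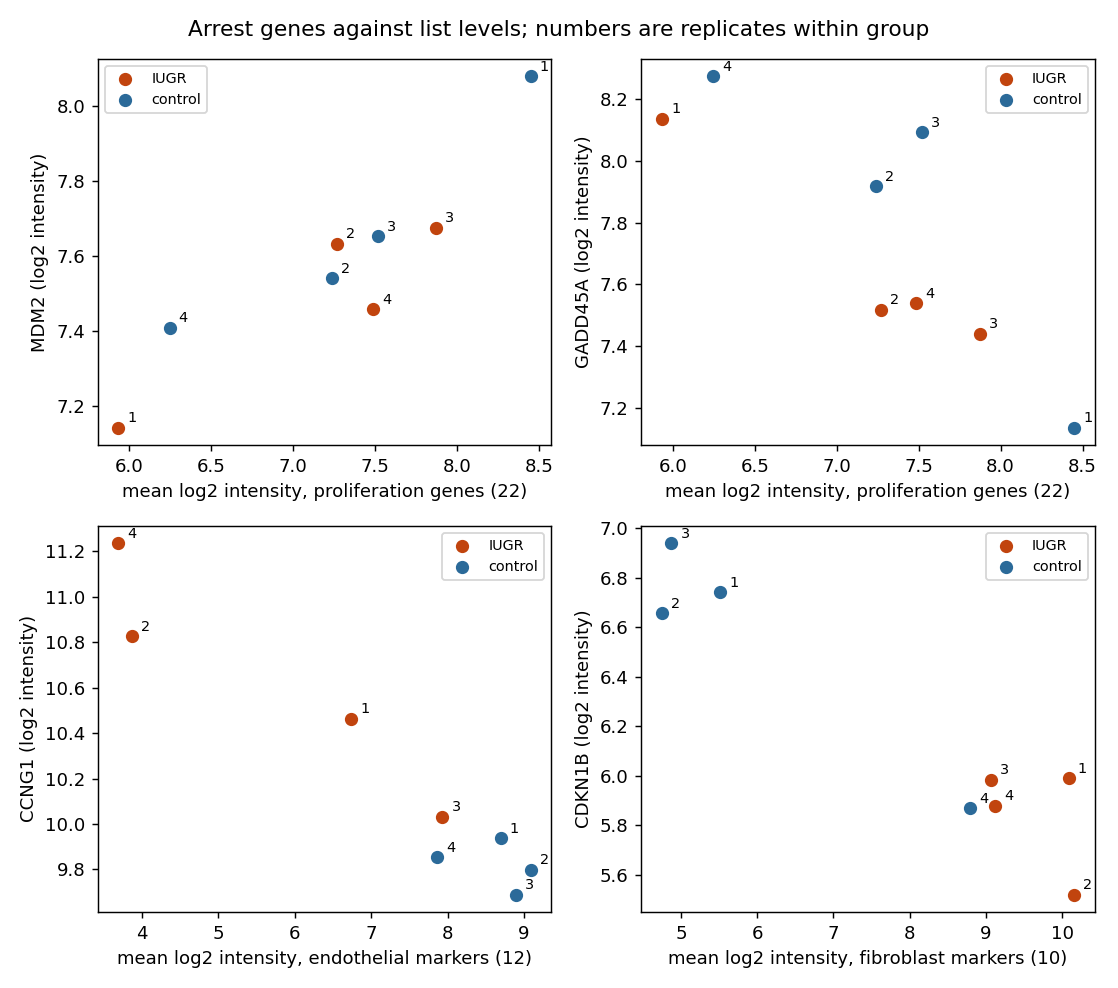
Log2 intensity of MDM2 and GADD45A against the mean log2 intensity of 22 proliferation genes, of CCNG1 against that of 12 endothelial markers and of CDKN1B against that of 10 fibroblast markers, for IUGR and control arrays numbered by replicate. MDM2 is higher and GADD45A lower on arrays with a higher proliferation level, and control replicate 4 stands beside the IUGR arrays in the CDKN1B panel.

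Genes with the most similar pattern were searched by Pearson r over the 8 arrays among 7288 or 7289 genes with a mean above the median gene. Each r is among the highest of that many on 8 arrays, so the search alone can give high values. Whether the genes are expressed together was not tested. For CDKN1A the most similar genes were S1PR2, PRPSAP1 and COL6A2 (r = 0.99, 0.98 and 0.98). For CDKN1B they included H3F3A and EXOC6 (r = 0.97 for each), and for CDKN2B GPCPD1, PIP5K1A and SBSPON (r = 0.95, 0.95 and 0.94). MDM2 was followed most closely by POLH, CENP-C and HNRNPM (r = 0.96 for each), and CCNG1 by SELENBP1, AGFG2 and FOSL2 (r = 0.99, 0.98 and 0.98). For CCNG2 they were HBP1, TFCP2 and KAT2B (r = 0.96, 0.95 and 0.94), and for GADD45A YPEL5, INPP5K and EXOC7 (r = 0.94, 0.93 and 0.90).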

How the data were processed

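Biotinylated cRNA was hybridised by a standard Affymetrix protocol, per the labels' protocols. The deposited values are intensities on a linear scale, from 2.77 to 8705, in 1 table of 15380 rows, read as linear from their range. The authors' background correction, probe summary and normalization are not stated in the labels or the table. The deposited intensities were not normalised again. Rows were named with the RefSeq gene table of ARS-UI_Ramb_v3.0 (no coordinates taken): 12809 rows by symbol, 47 by synonym and 109 by gene number, while 1617 kept their deposited name and 798 without a symbol were left out. CDKN2B kept its deposited name. The row with the highest mean stood for each of 14577 genes.

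Values under the 10th percentile, 5.89, were set to that value ahead of the log2 step, which understates differences of dim genes. IUGR and control (4 arrays each, groups from the treatment label) were compared with limma 3.58.1 in R 4.3.3 (lmFit, eBayes, two-sided, no covariate, Benjamini-Hochberg over all genes). The procedure was tested on simulated data. Exact permutation tests used all 70 assignments. The number of arrays limits the precision, and p-values measure the spread between cultures.

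The arrest genes and the 11 gene lists around them were chosen with earlier results of these data known. Named genes are the measured arrest genes, up to 4 further members of each list with the smallest unadjusted p, and the 3 genes most like each arrest gene. Some genes that this rule picks are not reported here.
The alternatives were quantile normalization, median centring, log2(value + 1), log2(value + 32), a filter at the median gene, trended and robust priors, array weights, passage or endothelial level as a covariate, a random block on the number that opens each title, averaging a gene's rows, and left-out arrays.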

Additional observations from a re-analysis of the deposited data

Results flagged for a closer look

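Within each group of 4 arrays the gap between an extreme array and its nearest neighbour was set against the group's whole range, with Dixon's 95% critical value for 4 samples, in 96 groups. Of these 11 had an array that stood apart, and chance gives about 1 in 20 groups.

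Among the arrest genes, GADD45A in IUGR replicate 1 measured 8.13, above 7.44 to 7.54 in the other IUGR arrays. CDKN2B in control replicate 4 measured 7.07, above 3.23 to 3.80 in the other controls. In that array CBX8 (4.72) and GADD45G (5.88) were also high and CDK2 (6.12) low against the other controls. IUGR replicate 1 was low for CCNE1 (3.90), IUGR replicate 4 for IL6 (5.71) and IUGR replicate 3 for RNF123 (5.26). In control cultures BAX was high in replicate 2 (7.38), CKS1B was high in replicate 1 (8.37) and E2F6 was low in replicate 1 (4.19).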

How the results depend on the processing

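Over 22 alternative settings (21 for CDKN2B, which lies below the median gene) the sign of the CDKN1A, CDKN1B, CDKN2B, MDM2 and CCNG1 differences did not turn, and none of these passed the limma threshold except CDKN1B without control replicate 4. Leaving out 1 array at a time gave -0.94 to -0.58 for CDKN1B and -0.30 to 0.073 for CCNG2, whose sign turned without IUGR replicate 3. CCNG2 turned to 0.72 ± 0.77 (SE) and GADD45A to 0.77 ± 0.82 (SE) with passage as a covariate. GADD45A turned to 0.073 without control replicate 4 and IUGR replicates 2 and 4. None of these was called, and the cause was not tested. Passage did not overlap between the groups, so differences with passage as a covariate are poorly determined. For CDKN1A the SE was 1.15 with it and 0.35 without it. The count of called genes, 10, was 19 after quantile normalization, 61 with log2(value + 1), 52 among genes above the median gene, 74 with array weights, 325 without those 3 arrays, 1 with a trended prior, and 0 after median centring, with log2(value + 32), a robust prior, passage or endothelial level as a covariate, or without IUGR replicates 2 and 4. Leaving out 1 array gave 0 to 369, the highest without control replicate 4. Genes at an unadjusted p under 0.05 numbered 2315 (1195 higher, 1120 lower), and 1310 among genes above the median gene, where fewer genes were tested, 1238 with passage and 1105 with endothelial level as a covariate, and after median centring 974 were higher and 1417 lower. The arrays left out for their marker levels were chosen with results known. For p53 targets, 3 at that level became 5 without control replicate 4 and 5 without IUGR replicates 2 and 4, and for the network that controls p53 4 became 2 without control replicate 4 and 7 without all 3 arrays. Over all genes the count was 2679 without control replicate 4, 1803 without IUGR replicates 2 and 4, and 2779 without all 3 arrays. Of 41 further named list genes, the difference moved by over 1.5 times for 28 with endothelial level and 33 with passage as a covariate (4 and 7 turned sign), and CCNE2, CDK4 and RNF123 turned sign without control replicate 1. No paired analysis was possible because each culture has an animal identifier of its own and the labels name no pairs. The labels give no replicate numbers, and those used here follow the sample order within each group. The number that opens each title was fitted as a random block and left 10 called genes. Control replicate 1 shares this number with IUGR replicates 2 and 3, and control replicates 3 and 4 share another.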

Other observations

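Genes tied to cellular senescence, the lasting arrest that CDK inhibitors enforce, gave 0 calls among 11 measured, with 2 higher and 0 lower at an unadjusted limma p under 0.05 and a median difference of 0.03, where 8.20% and 7.68% of all genes were at that level. There were 2 higher and 2 lower without control replicate 4 (median 0.36), and 4 higher and 1 lower without that array and IUGR replicates 2 and 4 (median 0.65). Of all 14577 genes 1307 were higher and 1372 lower in the first setting, and 1496 higher and 1283 lower in the second. IL6, an inflammatory cytokine, averaged 7.40 ± 1.14 in IUGR and 5.02 ± 1.58 in control cultures (n = 4 each), a difference of 2.38 ± 0.91 (SE, limma adjusted p = 0.276). IGFBP5, a binding protein of insulin-like growth factors, measured 4.46, 5.16, 4.42 and 7.25 in IUGR cultures, and 3.68, 3.81, 3.90 and 3.58 in control cultures. It lay above the controls on every IUGR array, by 1.58 ± 0.62 on average (SE, limma adjusted p = 0.290). The groups were apart in this direction for 4.53% of all genes. GLB1, the lysosomal galactosidase behind the usual senescence stain, and IGFBP7 differed by -0.99 and -0.92 (limma adjusted p = 0.332 and 0.341).

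Further genes were picked out after their values were seen. PERP, a p53 target of desmosomes, measured 6.98 and 8.57 in IUGR replicates 2 and 4 and lay at the floor of 2.56 on the other 6 arrays, so it was present on the arrays with high mesothelial and epithelial marker levels. FAS, the death receptor, measured 8.19 in control replicate 4 and at most 6.78 on any other array. CCND2, cyclin D2, was highest in control replicate 4 at 10.44 and lowest in IUGR replicate 4 at 6.05. GDF15, a stress hormone and p53 target, measured 5.25, 4.22, 5.57 and 3.45 in IUGR cultures, and 3.78, 3.65, 3.77 and 4.13 in control cultures. Its difference was 0.79 (limma adjusted p = 0.461). Leaving out IUGR replicates 2 and 4 together with control replicate 4 gave 1.68 (limma adjusted p = 0.0290), where 325 of all 14577 genes passed.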
